A study of Mus musculus with 10 samples.

Results

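The 9 genes described here mark the switch of a cell sheet between an epithelial and a mesenchymal state: *Cdh1*, *Epcam* and *Esrp1* on the epithelial side, *Cdh2*, *Vim* and *Fn1* on the mesenchymal side, and the transcription factors *Snai1*, *Snai2* and *Zeb2*. The choice was by name, made with earlier results of these data known, and all 9 were found in both tables of single-cell counts, among 27998 genes in the E14Tg2a table and among 32285 in the R1 table. *Esrp1* is also in the study's lists of PGCLC and EpiLC genes and *Cdh2* in its list of EpiSC genes, and those lists were made from these same cells, so they add no independent evidence on the direction of these 2 genes.

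Mouse embryonic stem cells (ESC) were taken through an in vitro system that yields primordial germ cell-like cells (PGCLC), and cells were profiled by droplet-based 3′ single-cell RNA-seq with 1 library per condition. All 8 libraries of the E14Tg2a line were wild type. ESC were grown with LIF and the inhibitor mix 2i (2i ESC) or with serum and LIF (S+L ESC). Epiblast-like cells (EpiLC) were collected on days 1, 2 and 3 of culture in Activin A and bFGF on fibronectin, and epiblast stem cells (EpiSC) came from prolonged passage under Activin A and bFGF on fibronectin. Embryoid bodies (EB) were aggregated from d2 EpiLC with BMP4, SCF, LIF and EGF and collected on days 2 and 4, so these libraries hold mixtures in which PGCLC are a minority. Accutase was used to dissociate EpiSC only, so that culture also differs from the rest in its enzyme (TripleExpress elsewhere). A second table holds d4 EB of wild-type R1 cells (WT) and of R1-derived Mll3/4 dCD cells (dCD), in which MLL3 and MLL4, the histone methyltransferases that place H3K4me1 at enhancers, lack catalytic activity. A catalytic mutation need not alter a transcript's level, so these counts are no check of that genotype. The E14Tg2a and R1 libraries were made with different kit versions, and levels were not compared between the tables.

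Epithelial cells are held together by adherens junctions, in which the product of *Cdh1* (E-cadherin) binds its like on the neighbouring cell. In the gastrulating embryo, epiblast cells that enter the primitive streak lose E-cadherin, take up N-cadherin (*Cdh2*) and become mesoderm. SNAI1, SNAI2 and ZEB2 are zinc-finger repressors that bind E-box sequences and silence epithelial genes, while ESRP1 directs the splicing pattern of epithelial transcripts. The 3′ UMI counts used here give gene levels and do not show splice forms.

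The letters CAGGTG, or CACCTG when read on the other strand, form the E-box that SNAI and ZEB factors are known to bind. RefSeq promoters of GRCm38.p6, from 250 bases before to 50 bases after the start of transcription, were at hand for 4 of the 9 genes (*Epcam*, *Vim*, *Snai1* and *Zeb2*), and *Cdh1*, *Cdh2*, *Fn1*, *Snai2* and *Esrp1* were not in that table. The promoters of *Epcam* (chr17:87635729-87636028, plus strand), *Snai1* (chr2:167537945-167538244, plus strand) and *Vim* (chr2:13574061-13574360, plus strand) are shown 5′ to 3′, as an epithelial gene, a repressor and a mesenchymal gene, with each CAGGTG or CACCTG in capitals.
Epcam: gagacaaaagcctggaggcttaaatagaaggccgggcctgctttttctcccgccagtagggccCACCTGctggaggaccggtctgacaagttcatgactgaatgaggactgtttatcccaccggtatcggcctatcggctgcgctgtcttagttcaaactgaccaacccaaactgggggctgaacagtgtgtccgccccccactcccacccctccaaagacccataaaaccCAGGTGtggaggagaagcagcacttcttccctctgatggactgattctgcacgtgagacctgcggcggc
Snai1: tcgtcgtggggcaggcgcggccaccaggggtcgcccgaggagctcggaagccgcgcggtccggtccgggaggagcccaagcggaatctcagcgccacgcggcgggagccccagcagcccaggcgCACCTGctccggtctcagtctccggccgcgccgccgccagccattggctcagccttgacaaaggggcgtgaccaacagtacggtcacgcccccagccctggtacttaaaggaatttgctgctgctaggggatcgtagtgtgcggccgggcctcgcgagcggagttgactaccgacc
Vim: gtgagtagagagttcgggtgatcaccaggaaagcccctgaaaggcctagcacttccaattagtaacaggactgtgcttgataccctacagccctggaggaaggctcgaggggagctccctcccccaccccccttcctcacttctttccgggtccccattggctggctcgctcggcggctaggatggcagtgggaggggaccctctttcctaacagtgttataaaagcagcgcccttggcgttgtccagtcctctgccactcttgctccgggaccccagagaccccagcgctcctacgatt
The *Epcam* promoter held 2 such motifs, which begin at positions -187 and -19, the start being position 0. The *Snai1* promoter held 1, beginning at -126, and the *Vim* promoter 0. *Zeb2* had 4 start sites in the table and 0 motifs at each of them. For comparison, 6640 of all 32851 promoters of the same length (20.2%) held the motif on either strand, and these matches describe letters in a window, not bound sites.

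To obtain a level, the UMIs of each gene were added up across all cells in a group and divided by the group's total, in units of 1 per 1000000 (CPM, counts scaled to that total), and exact 95% Poisson intervals were attached. Ratios of CPM carry exact conditional 95% intervals, and shares of cells carry exact Clopper-Pearson 95% intervals. With 1 library per condition these cover counting error only, no test was made, and a stage cannot be told apart from its library. A gene was called higher or lower when log2 of (CPM + 1) differed by at least 1 between groups that together held at least 10 UMIs of it. In summed counts, fewer expressing cells and less RNA per cell cannot be told apart, so shares of cells with a UMI are given beside the levels. Libraries held 227 to 1699 cells and 8757170 to 22887974 UMIs, with medians of 11751 to 36750 UMIs per cell, and EB and R1 cells were the shallowest. Doublet calls ranged from 0.589% to 6.23% of a library. Among the E14Tg2a libraries 8 cell barcodes occurred in more than 1 library, and 0 did so in R1.

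*Cdh1* formed a hill over the stages with its top in EpiLC. Its level was 42.5 CPM (38.3–47.0) in 2i ESC and 40.3 (36.5–44.4) in S+L ESC. EpiLC held 82.7 CPM (77.4–88.2) on day 1, 103 (96.8–109) on day 2 and 107 (102–113) on day 3, EpiSC 59.2 (55.0–63.5), and EB 33.2 (30.3–36.3) on day 2 and 19.3 (16.6–22.2) on day 4. The d2 and d3 EpiLC did not differ beyond counting error, nor did the ESC of both media, and all other neighbours in the order of levels did. The share of cells with a *Cdh1* UMI was 67.8% in 2i ESC, 93.4% in d2 EpiLC, 77.7% in EpiSC, 38.7% in d2 EB and 17.1% in d4 EB. As a rough background level, 3.85% of the endothelium-like cells of d4 EB, a type that lacks E-cadherin, had a *Cdh1* UMI. Their median depth was 34872 UMIs, against 21658 in d4 EB as a whole. Only 26 cells were of this type, so that share is imprecise.

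*Epcam*, which encodes an epithelial adhesion molecule, had the same top and its lowest level in 2i ESC. It stood at 26.6 CPM (23.3–30.3) in 2i ESC and 104 (98.1–111) in S+L ESC. EpiLC held 167 CPM (160–175) on day 1, 293 (284–304) on day 2 and 305 (296–314) on day 3, EpiSC 171 (164–179), and EB 95.6 (90.6–101) on day 2 and 48.1 (43.8–52.7) on day 4. Nearly every d2 EpiLC had a UMI (99.7%), against 57.3% of 2i ESC and 27.2% of d4 EB cells. *Esrp1* was close to undetected in 2i ESC, with 3 UMIs in 227 cells (0.343 CPM), and reached 4.36 CPM in S+L ESC. Over the 3 days of EpiLC it was 29.9, 35.5 and 40.0 CPM, in EpiSC 29.1 CPM, and in EB 9.90 CPM on day 2 and 5.73 CPM on day 4. The 3 epithelial genes thus ranked d3 and d2 EpiLC highest, but *Epcam* and *Esrp1* set the ESC of both media apart and *Cdh1* did not.

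*Cdh2* was low in ESC and EpiLC and high in EpiSC and EB. It measured 1.60 CPM (0.874–2.68) in 2i ESC and 2.08 (1.29–3.18) in S+L ESC. EpiLC held 7.46 CPM (5.93–9.25) on day 1, 2.96 (2.04–4.15) on day 2 and 1.85 (1.21–2.71) on day 3, EpiSC 27.6 (24.8–30.6), and EB 39.6 (36.4–42.9) on day 2 and 49.0 (44.7–53.7) on day 4. The d1 EpiLC lay above every other EpiLC and ESC library, while 2i ESC, S+L ESC and d2 and d3 EpiLC formed a run of neighbours without a difference beyond counting error. Cells with a *Cdh2* UMI made up 6.17% of 2i ESC, 19.3% of d1 EpiLC, 10.4% of d2 EpiLC, 40.5% of EpiSC, 51.2% of d2 EB and 58.2% of d4 EB.

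*Vim*, the intermediate filament of mesenchymal cells, and *Fn1*, the matrix protein fibronectin, were high in 2i ESC as well as in EB. *Vim* went from 311 CPM (299–323) in 2i ESC and 70.5 (65.4–75.8) in S+L ESC to 90.3 (84.8–96.1) in d1, 44.9 (41.1–49.0) in d2 and 41.6 (38.3–45.1) in d3 EpiLC, and stood at 214 (206–222) in EpiSC, 346 (337–356) in d2 EB and 471 (457–485) in d4 EB. *Fn1* stood at 175 CPM in 2i ESC and 108 CPM in S+L ESC, at 105, 36.1 and 28.5 CPM over the 3 days of EpiLC, at 25.1 CPM in EpiSC, and at 239 and 366 CPM in EB of days 2 and 4. EpiSC were therefore high in *Vim* and *Cdh2* but held the lowest *Fn1* level of the 8 libraries, not separable from d3 EpiLC by counting.

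The 3 repressors were near the detection limit outside EB. *Snai1* ranged from 1.03 CPM in 2i ESC to 3.29 in EpiSC over the 6 libraries that were not EB, with 3.52% to 10.5% of cells carrying a UMI, and measured 43.5 (40.2–47.0) in d2 EB and 57.2 (52.5–62.2) in d4 EB. *Snai2* ranged from 0.179 CPM (2 UMIs) in d2 EpiLC to 1.18 in EpiSC, then 6.48 (5.25–7.93) in d2 EB and 35.0 (31.3–38.9) in d4 EB. *Zeb2* ranged from 0.114 CPM (1 UMI) in 2i ESC to 2.19 in EpiSC, then 9.76 (8.23–11.5) in d2 EB and 38.3 (34.5–42.4) in d4 EB. Both EB libraries lay above the others for each repressor. For none of the 3 did any neighbours among the other 6 libraries differ beyond counting error.

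**Figure D1:**
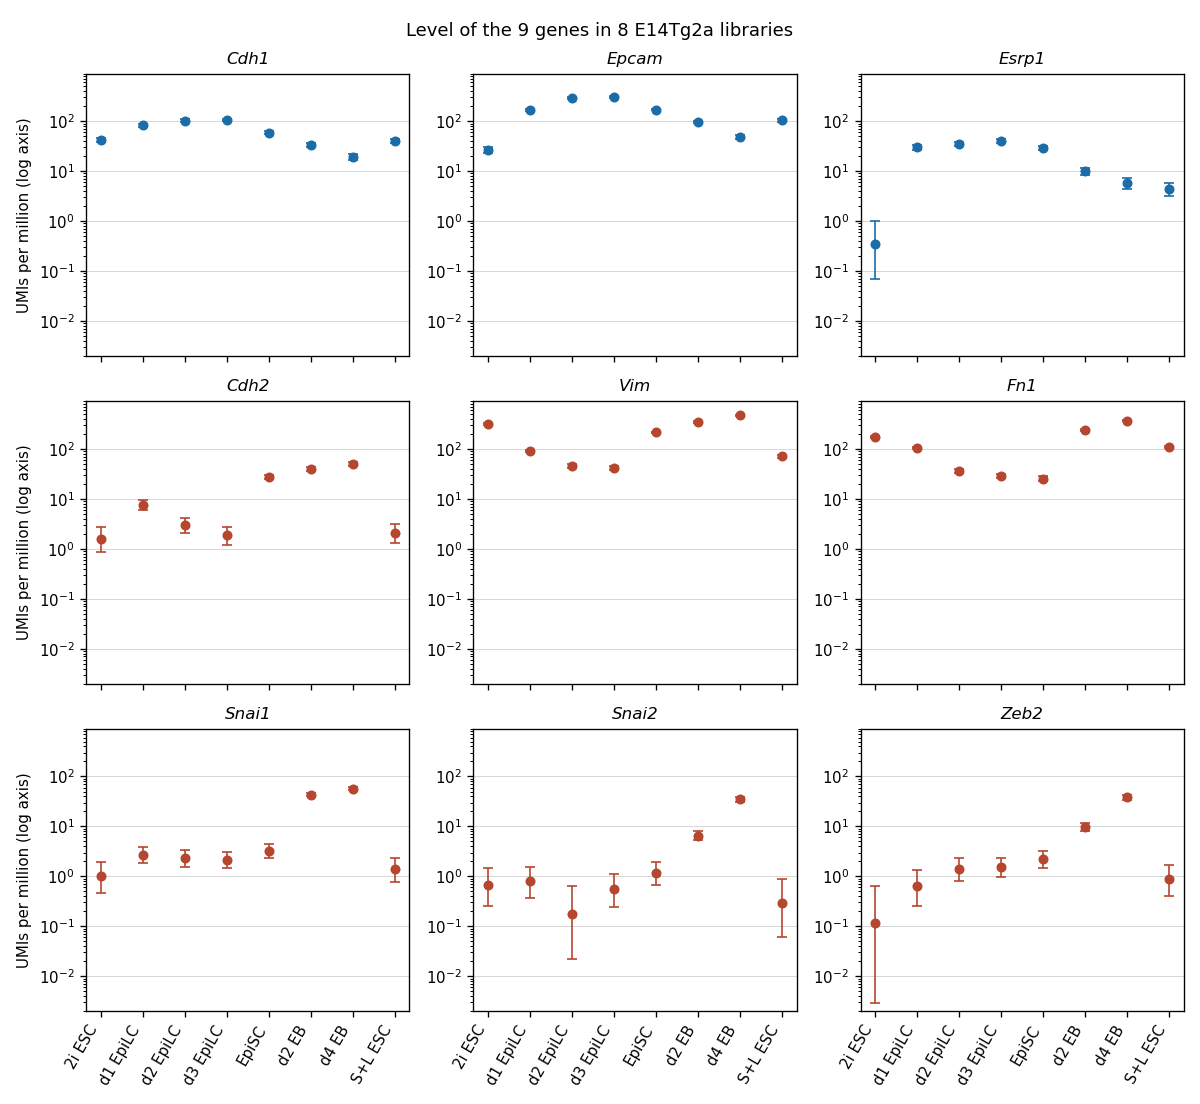
Levels of the 9 genes in the 8 E14Tg2a libraries in CPM on a log axis, 1 panel per gene, each point being the summed level of 1 library and each bar its exact 95% Poisson interval (epithelial genes in blue, the others in red). *Cdh1* peaks at 107 CPM in d3 EpiLC, whereas *Snai1* stays at or below 3.29 CPM outside the EB and reaches 57.2 CPM in d4 EB.

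The step from 2i ESC to d2 EpiLC concerns the exit from naive pluripotency. Here 4 of the 8 members with enough UMIs were higher, against 16.0% of all genes in that direction, and 2 were lower, against 6.49%. *Cdh1* was 2.42-fold higher (2.15–2.72), *Epcam* 11.03-fold (9.65–12.7) and *Esrp1* 104-fold (35.2–505), the last resting on 3 UMIs in 2i ESC. *Zeb2* also met the threshold at 12.6-fold (1.95–527), with 1 UMI in 2i ESC. *Vim* was 6.92-fold lower and *Fn1* 4.84-fold lower. *Cdh2*, at 1.85-fold (0.964–3.74), was not separable from no change by counting. All epithelial members were thus higher and both abundant mesenchymal members lower in d2 EpiLC. The 2-fold call of *Cdh1* held with totals and was lost at a log2 ratio of 0.96 with median-of-ratios size factors. Those factors moved the median of all genes by -0.26 and the share of higher genes among all calls from 71.1% to 56.7%.

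Other genes of both states were followed in lists of 34 epithelial and 36 mesenchymal genes written from general knowledge. Of 33 epithelial genes with enough UMIs, 18 were higher in d2 EpiLC and 3 lower, with a median log2 ratio of 1.10 against 0.27 for all genes. The largest differences were those of the claudins *Cldn6* (92.8 against 3.08 CPM) and *Cldn7* (96.5 against 6.74 CPM), tight-junction proteins, and of the keratin *Krt18* (69.1 against 4.00 CPM). Of 17 mesenchymal genes 7 were higher and 3 lower, with a median of 0.48. Among them *Thy1*, a surface glycoprotein, rose from 1.03 to 17.7 CPM and *Tagln*, an actin-binding protein of smooth muscle, from 0.457 to 8.34 CPM, while *Tgfbi*, a matrix protein, fell from 8.45 to 0.359 CPM. The mesenchymal list therefore did not move with *Vim* and *Fn1* at this step.

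S+L ESC and 2i ESC differ in the medium alone as far as the labels tell, and this comparison shares its control library with the preceding one. *Epcam* was 3.92-fold higher (3.40–4.54) and *Esrp1* 12.7-fold higher (4.08–64.0) in S+L ESC, which makes 2 of 8 members against 9.73% of all genes. *Vim* was the 1 member lower, by 4.41-fold, against 2.41% of all genes. *Cdh1* stood at 0.948 times its 2i level (0.822–1.09) and *Fn1* at 0.619 times (0.573–0.670). *Esrp1* lost its call with a pseudocount of 5 CPM (log2 ratio 0.81). In the epithelial list 9 of 29 genes were higher and 4 lower, led by the P-cadherin gene *Cdh3* (5.94 against 0.457 CPM), the epithelial transcription factor *Grhl2* (5.05 against 0.343 CPM) and *Krt8* (3.96 against 13.5 CPM). In the mesenchymal list 6 of 16 were higher and 1 lower, led by the homeobox gene *Prrx2* (10.3 against 0.571 CPM), *Snai3*, of the same family as *Snai1* (6.04 against 0.571 CPM), and *Thy1* (6.83 against 1.03 CPM).

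EpiLC can give rise to PGCLC whereas EpiSC do so poorly, and EpiSC are the culture nearest to the gastrulating epiblast. *Cdh2* was 9.33-fold higher (6.52–13.8) and *Vim* 4.76-fold higher (4.32–5.24) in EpiSC than in d2 EpiLC, 2 of 9 members against 8.47% of all genes. None of the 9 passed the threshold downwards, against 6.13% of all genes, yet *Cdh1* stood at 0.576 times its d2 EpiLC level (0.525–0.632) and *Epcam* at 0.584 times (0.553–0.617). *Snai1* (1.41-fold, 0.846–2.40) and *Zeb2* (1.53-fold, 0.800–3.03) did not differ from d2 EpiLC beyond counting error. *Snai2* did, at 6.56-fold higher (1.52–59.1), but on 15 against 2 UMIs and short of the threshold. The summed level of 7 primitive streak or nascent mesoderm markers, all detected, was 358 CPM in EpiSC and 42.5 CPM in d2 EpiLC, where 1 of the 7 was at 0. The part of such cells in the *Cdh2* and *Vim* levels was not tested.

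In the lists, 12 of 33 other epithelial genes were lower in EpiSC and 3 higher (median log2 ratio -0.34, all genes 0.09), and 9 of 24 mesenchymal genes were higher and 2 lower (median 0.76). *Ap1m2*, an epithelial sorting adaptor, fell from 15.2 to 0.392 CPM and *Cldn4* from 17.3 to 0.627 CPM, whereas *Dsp*, the desmosome protein desmoplakin, rose from 0.627 to 13.8 CPM. *Lgals1*, a secreted lectin, rose from 113 to 728 CPM, *Twist1*, a transcription factor of mesoderm, from 0.627 to 8.93 CPM, and *Serpinh1*, a collagen chaperone, from 38.1 to 222 CPM.

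From d2 EpiLC to the d2 EB made from them, every member passed the threshold. The 6 mesenchymal genes and repressors were higher, against 13.1% of all genes, and the 3 epithelial genes lower, against 9.79%. *Snai1* was 18.7-fold higher (12.6–28.8), *Cdh2* 13.4-fold (9.42–19.6), *Vim* 7.71-fold (7.03–8.47), *Zeb2* 6.81-fold (4.05–12.2) and *Fn1* 6.63-fold (5.97–7.36). *Snai2* was 36.2-fold higher (9.74–303), on 2 UMIs in d2 EpiLC. *Cdh1* was 3.09-fold, *Epcam* 3.07-fold and *Esrp1* 3.59-fold lower. This comparison and that of EpiSC share the d2 EpiLC library. The cell types changed at the same step: extraembryonic mesoderm markers summed to 2.33 CPM in d2 EpiLC (4 of 7 at 0) and 966 CPM in d2 EB, streak markers to 42.5 and 328 CPM, and extraembryonic ectoderm markers to 7.53 and 109 CPM (1 of 7 at 0 in each). Their part in the member levels was not tested.

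Of 29 other mesenchymal genes 21 were higher in d2 EB and 2 lower, with a median log2 ratio of 2.15 against 0.06 for all genes. The collagen gene *Col1a1* went from 0.179 CPM (2 UMIs) to 45.1 CPM, *Prrx2* from 2.60 to 115 CPM and *Twist2* from 0.448 to 23.5 CPM. The other epithelial genes were divided, 6 of 34 being higher and 10 lower (median -0.29). The 3 with the largest ratios were higher, against the direction of *Cdh1*: *Krt8* went from 15.1 to 550.1 CPM, *Dsp* from 0.627 to 22.3 CPM and *Krt19* from 3.76 to 41.0 CPM. Keratins of simple epithelia were therefore higher in the same library in which the epithelial members were lower.

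Between d2 and d4 EB only *Snai2* (5.40-fold higher, 4.28–6.85) and *Zeb2* (3.93-fold higher, 3.23–4.80) passed the threshold, 2 of 9 members against 9.73% of all genes. No member passed it downwards, against 3.54% of all genes, with *Epcam* at 0.503 times (0.452–0.560) and *Cdh1* at 0.581 times (0.488–0.689) the d2 level. *Snai1* was 1.31-fold higher (1.17–1.48) and *Cdh2* 1.24-fold higher (1.09–1.40). *Snai1* was thus already near its d4 level on day 2, whereas *Snai2* and *Zeb2* were not. Extraembryonic ectoderm markers moved with day as well, their sum over 7 genes being 109 CPM in d2 EB (1 of 7 at 0) and 864 CPM in d4 EB. Blood markers went from 0.614 CPM (4 of 6 at 0) to 1000.2 CPM (0 of 6 at 0) and endothelium markers from 45.4 CPM (1 of 9 at 0) to 290 CPM (0 of 9 at 0), and the part of these cell types in the *Snai2* and *Zeb2* levels was not tested. Without the extraembryonic ectoderm-like clusters, an alternative chosen after seeing the data, *Cdh1* and *Epcam* were lower on day 4 by log2 ratios of -1.71 and -1.20, and 5 members passed the threshold.

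Streak markers summed to 328 CPM in d2 EB and 5.10 CPM in d4 EB, and their part in the levels was not tested. In the lists, 26 of 33 mesenchymal genes were higher in d4 EB and 1 lower (median log2 ratio 1.44, all genes 0.11), led by the collagens *Col3a1* (82.4 against 0.137 CPM, the latter 2 UMIs) and *Col1a2* (117 against 3.82 CPM) and the homeobox gene *Prrx1* (55.5 against 1.23 CPM). Only 2 of 33 epithelial genes were higher and 1 lower: *Krt19* (131 against 41.0 CPM), the protease gene *Prss8* (18.0 against 8.26 CPM) and the protease inhibitor gene *Spint1* (22.4 against 55.0 CPM).

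The study lists 91 d2 EB cells and 44 d4 EB cells as PGCLC. These cells were taken from clusters of the same transcriptomes, so their values are a description. On day 2, *Epcam* stood at 163 CPM in listed PGCLC and 78.6 CPM in the other EB cells, and *Esrp1* at 28.0 and 5.38 CPM. These are the 2 of 9 members that were higher, by 2.08-fold and 5.20-fold, against 6.06% of all genes. *Cdh1* was nearly level, at 37.5 CPM (30.8–45.2) and 32.1 CPM (28.9–35.5), a ratio of 1.17 (0.936–1.45). The share of cells with a *Cdh1* UMI nonetheless was 65.9% in listed PGCLC and 33.2% in the other cells. Listed PGCLC were also deeper, with medians of 29664 against 24046 UMIs per cell.

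The mesenchymal members were lower in d2 listed PGCLC, 4 of 9 passing the threshold against 10.3% of all genes. *Snai1* stood at 5.80 CPM against 52.9 CPM, a 9.13-fold difference, and *Zeb2* at 1.02 CPM (3 UMIs) against 11.9 CPM, 11.7-fold. *Cdh2* stood at 9.89 against 47.0 CPM and *Vim* at 94.8 against 409 CPM. *Fn1* (156 against 260 CPM) and *Snai2* (4.09 against 7.08 CPM) stayed within 2-fold. *Snai1* and *Cdh2* in listed PGCLC were low but above their d2 EpiLC levels of 2.33 and 2.96 CPM.

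On day 4 the separation was wider and all 9 members passed the threshold, 3 higher against 8.64% of all genes and 6 lower against 31.3%. *Cdh1* stood at 36.0 CPM (25.5–49.5) in listed PGCLC and 17.2 CPM (14.5–20.2) in other cells, *Epcam* at 184 and 31.3 CPM, and *Esrp1* at 16.1 and 4.44 CPM. *Cdh2* was found in 1 of 44 listed PGCLC with 1 UMI (0.948 CPM), 58.0-fold below the 55.0 CPM of the other cells (interval 10.4–2295). *Zeb2* was found in 0 of 44 cells, which allows up to 2.84 CPM by a limit of 3 UMIs and 3.50 CPM by the exact interval. Against the 43.0 CPM of the other cells it was at least 12.2-fold lower by the latter. *Vim* (26.5 against 525 CPM), *Snai1* (3.79 against 63.8 CPM) and *Snai2* (1.90 CPM on 2 UMIs, against 39.1 CPM) were 19.8-, 16.8- and 20.6-fold lower. *Fn1* was the least separated mesenchymal member at 130 against 395 CPM, 3.04-fold lower. With median-of-ratios size factors the median of all genes shifted by 0.28 and the share of higher genes among calls went from 21.7% to 33.2%.

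Between days 2 and 4 the *Cdh1* level of listed PGCLC stayed at 37.5 and 36.0 CPM while that of the other cells went from 32.1 to 17.2 CPM. PGC markers summed to 455 CPM in d2 and 407 CPM in d4 listed PGCLC and to 43.2 and 51.7 CPM in the other cells, with 0 of 6 at 0 in each group. On day 2 the call for *Cdh1* depended on its comparison cells. Leaving out the extraembryonic ectoderm-like cells gave a log2 ratio of 1.02 there, past the threshold. The same step on day 4 left 3 members higher and 6 lower, so *Cdh1* kept its call. The other d4 cells were a mixture, in which 253 extraembryonic mesoderm or allantois-like cells held *Cdh1* at 1.31 CPM. On day 4 a k-means cluster in place of the listed cells, with globins as its leading genes, gave 0.88. A pseudocount of 5 CPM gave 0.89, and both were short of the threshold.

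Other mesenchymal genes were lower in listed PGCLC on both days, 24 of 28 on day 2 (median log2 ratio -1.83, all genes -0.11) and 31 of 31 on day 4 (median -4.12, all genes -0.46), with 0 higher. On day 2 the largest were *Col1a1* (1.02 CPM on 3 UMIs, against 56.2 CPM), *Tagln* (7.16 against 72.9 CPM) and *Prrx2* (15.3 against 139 CPM). On day 4 they were *Col1a2* (0.948 CPM on 1 UMI, against 131 CPM), *Twist2* (2.84 CPM on 3 UMIs, against 197 CPM) and *Tagln*, with 0 UMIs against 65.0 CPM. The epithelial list was mixed, with 8 of 33 higher and 7 lower on day 2 and 10 of 31 higher and 4 lower on day 4. *Krt8* was lower in listed PGCLC, at 70.9 against 670.0 CPM on day 2 and 8.53 against 658 CPM on day 4. The same held on both days for *Krt18* (73.0 against 587 CPM and 33.2 against 548 CPM) and *Krt19* (6.48 against 49.6 CPM and 3.79 against 146 CPM). *Rab25*, a GTPase of epithelial vesicle traffic, stood at 68.3 against 2.81 CPM on day 4. Relative to the other EB cells, high *Epcam* and *Esrp1* in listed PGCLC thus went with low simple-epithelium keratins. The *Krt8* level of d2 listed PGCLC was nonetheless above the 15.1 CPM of d2 EpiLC.

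**Figure D2:**
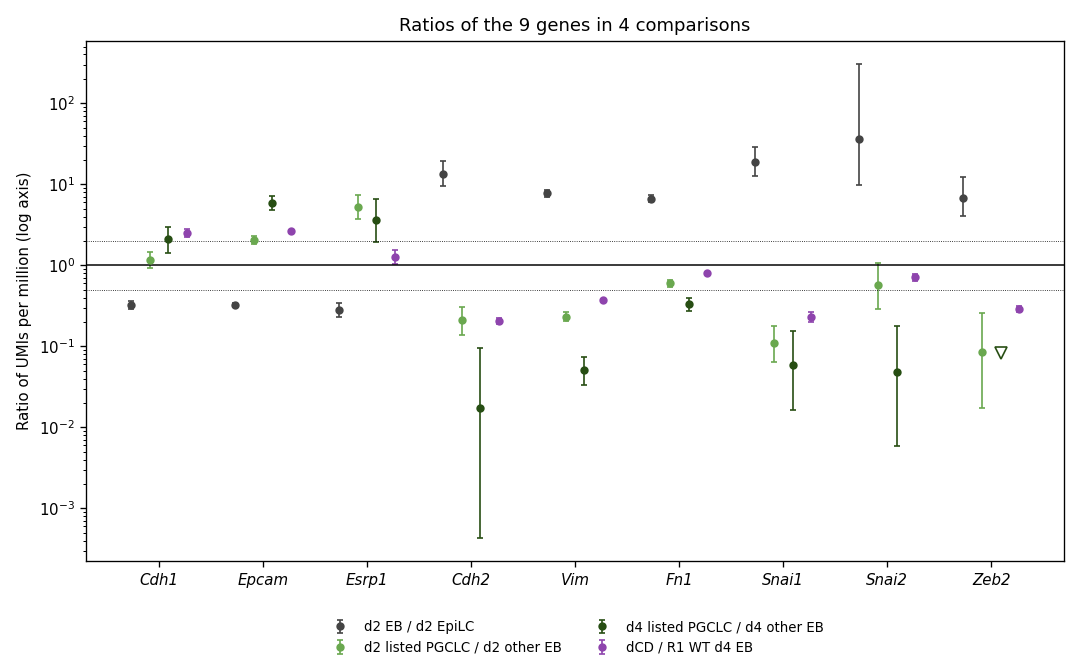
Ratio of CPM for each of the 9 genes on a log axis in 4 comparisons (d2 EB over d2 EpiLC, listed PGCLC over other EB cells on each day, and dCD over WT), with exact conditional 95% intervals as bars, dotted lines at ratios of 0.5 and 2, and an open triangle for the upper limit where a count was 0. Every member lies outside the dotted lines from d2 EpiLC to d2 EB and in d4 listed PGCLC, with *Cdh1* at 0.323 and 2.095.

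The EB cells were also grouped by k-means on variable genes that left out the 9 members, so that a cluster's member levels took no part in making it. In d2 EB, 392 cells were extraembryonic mesoderm or allantois-like, 89 cells stayed unnamed, of which 83 were listed PGCLC, and 56 cells were extraembryonic ectoderm-like. *Cdh1* was 18.3 CPM (15.7–21.2) in the mesoderm-like cells, 37.2 (30.4–45.1) in the unnamed cells and 93.7 (81.3–107) in the ectoderm-like cells. *Cdh2* was 56.3, 7.44 and 7.35 CPM in the same order, and *Snai1* 59.7, 6.74 and 19.3 CPM. *Cdh1* was therefore higher in both smaller clusters than in the mesoderm-like cells, and the ectoderm-like cells were above the listed PGCLC in *Cdh1* and *Epcam* (203 against 163 CPM).

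In d4 EB the mesoderm-like cluster of 253 cells held little *Cdh1* (1.31 CPM, 0.528–2.70, a UMI in 2.77% of cells) or *Epcam* (8.62 CPM). Its *Cdh2* was 81.7 CPM, *Snai1* 83.6, *Snai2* 58.1 and *Zeb2* 61.7 CPM. Its name depended on the clustering, since Seurat gave d4 EB no cluster of that name. Seurat gave a cluster of 151 cells, labelled blood-like on 3 markers and led by globins, and an unnamed cluster of 105 cells. *Cdh1* was 1.01 and 2.06 CPM in these clusters and *Cdh2* 80.4 and 81.0 CPM. By k-means, globins led the cluster of 50 cells instead. How many of the 151 cells expressed globins was not tested, so the label is no count of blood cells. The ectoderm-like cluster of 39 cells kept *Cdh1* at 73.1 CPM with *Cdh2* at 3.74 CPM, yet held *Snai1* at 41.6 CPM (32.9–52.0), while its *Zeb2* was 2.13 CPM. The endothelium-like cluster of 26 cells had the highest *Vim* (1818 CPM) and *Fn1* (648 CPM) with little *Cdh2* (16.2 CPM), *Snai1* (14.5 CPM) and *Cdh1* (0.854 CPM). The unnamed cluster of 50 cells, 44 of them listed PGCLC, stood at 32.7 CPM for *Cdh1* and 53.1 CPM for *Vim*. Its leading genes were globins such as *Hbb-bh1* and *Hba-a1*, so it was not made of PGCLC alone. The listed PGCLC of d4 EB stood at 36.0 CPM for *Cdh1* and 26.5 CPM for *Vim*. The mesenchymal members thus did not form a single block, since *Vim* and *Fn1* were highest in endothelium-like cells and *Cdh2* and the 3 repressors in mesoderm-like cells.

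**Figure D3:**
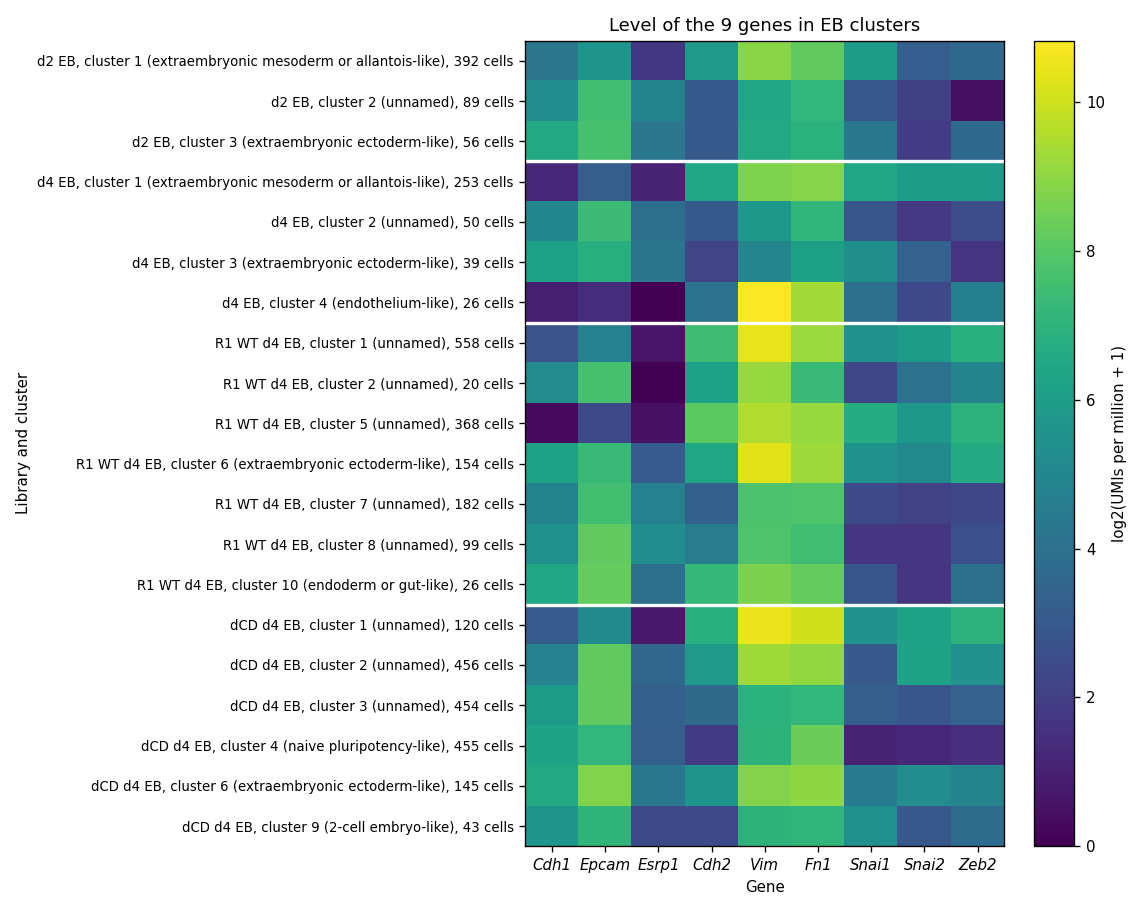
Heat map of the 9 genes (columns) as log2(CPM + 1) in the k-means clusters of d2 EB (3 clusters) and d4 EB (4 clusters) and in the R1 d4 EB clusters with at least 20 cells of a genotype, all found without the 9 genes. The d4 extraembryonic ectoderm-like cells show *Snai1* at 41.6 CPM beside *Cdh1* at 73.1 CPM.

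Cells that hold UMIs of both cadherins were counted in every library. EpiSC had the largest share, 117 of 373 cells or 31.4% (26.7–36.3), followed by d1 EpiLC with 18.9% (14.5–24.0) and d2 EB with 87 of 537 cells or 16.2% (13.2–19.6). Of 2i ESC 3.52% (1.53–6.83) had both, of S+L ESC 5.18%, of EpiLC on days 2 and 3 9.34% and 6.27%, and of EB on day 4 3.80% (2.09–6.30). These shares depend on depth. With every cell thinned to 15374 UMIs, EpiSC had 13.6% (10.2–17.5), d2 EB 7.13%, d1 EpiLC 6.37%, d2 EpiLC 3.53%, d4 EB 2.42%, S+L ESC 2.05%, d3 EpiLC 1.80% and 2i ESC 0.897%. EpiSC remained highest at equal depth. The lowest value was that of 2i ESC, and d4 EB moved past 2 libraries of ESC and EpiLC. However, the intervals of 2i ESC (0.109–3.20), d3 EpiLC (0.726–3.67), S+L ESC (0.755–4.40) and d4 EB (1.05–4.71) overlapped, so no order among them is read.

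Whether the cadherins keep apart within a library can be read from the share of *Cdh2*-positive cells among cells with and without *Cdh1*. In EpiSC these shares were 40.3% and 41.0%, and after thinning 24.4% and 23.8%, nearly level with and without *Cdh1*. Counting cells with at least 2 UMIs of a gene as positive, the shares were 26.7% and 15.2%, so this reading depends on the definition. In d2 EB they were 41.8% and 57.1% (24.5% and 46.5% after thinning), and in d4 EB 22.2% and 65.6%. In d1 EpiLC they were 22.1% and 2.50% before thinning but 9.19% and 12.2% after it, so no order is read there. EB are mixtures of cell types, and the part of these types in the EB shares was not tested. The extraembryonic mesoderm or allantois-like cluster held 67 of the 87 d2 EB cells with both. Within that cluster 26.0% of cells had a *Cdh1* UMI, 63.0% a *Cdh2* UMI and 17.1% both. In listed PGCLC both cadherins were found in 15.4% of d2 cells and in 1 of 44 d4 cells (2.27%), against 16.4% and 4.01% of the other EB cells. At equal depth the d2 values were 3.30% and 7.94% and the d4 values 2.63% (1 of 38 cells) and 2.39%, so on day 4 the order turned with depth and none is read.

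**Figure D4:**
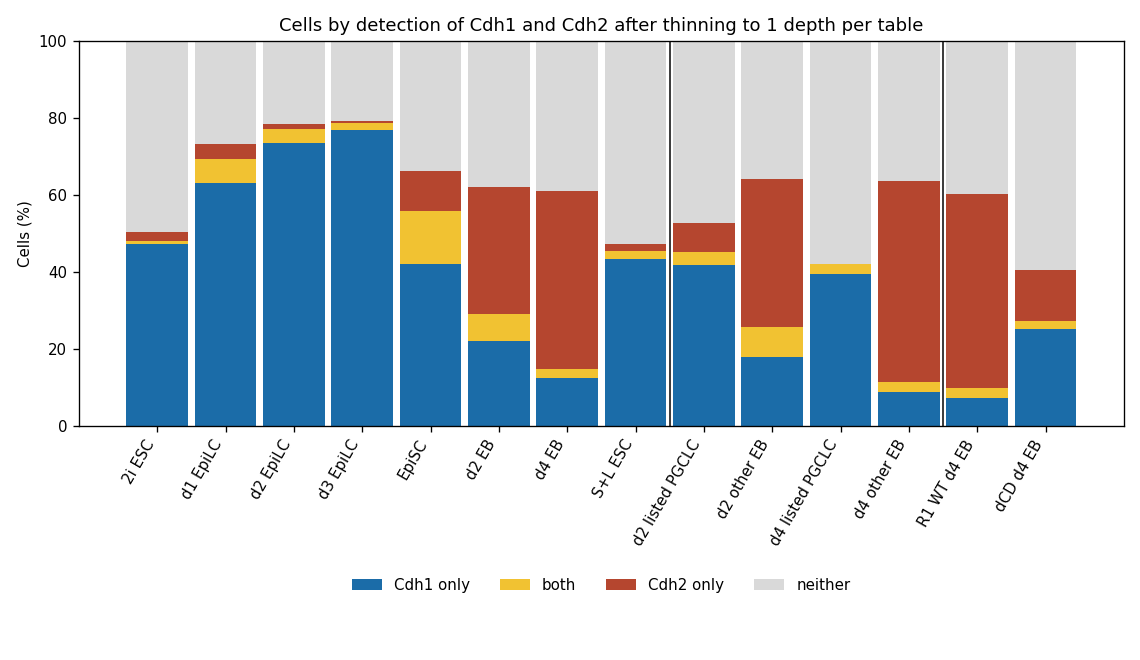
Share of cells in percent with *Cdh1* only, both cadherins, *Cdh2* only or neither, after thinning every cell to 15374 UMIs in E14Tg2a and 6831 UMIs in R1, with lines between the 8 libraries, the split EB cells and the R1 libraries. Cells with both make up 13.6% of EpiSC, and cells with *Cdh2* only are the largest class of d4 EB apart from its PGCLC.

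The other members differed between the cadherin classes. Among d2 EB cells *Epcam* was 175 CPM in 121 cells with *Cdh1* only, 83.8 CPM in cells with both and 43.6 CPM in 188 cells with *Cdh2* only. *Snai1* ran the other way with 17.0 (13.2–21.5), 34.8 (27.9–42.9) and 67.7 CPM (60.4–75.6). *Vim* did not take a middle value, being 164 CPM with *Cdh1* only and 433 and 437 CPM in the other 2 classes. In EpiSC, by contrast, cells with both were nearer to those with *Cdh1* only in *Vim*, at 184 (172–196) against 158 CPM (148–169). Cells with *Cdh2* only stood at 441 CPM and cells with neither at 379 CPM (347–413), so *Vim* was high in both classes without *Cdh1*. *Snai1* was between 2.87 and 3.32 CPM in the 3 classes with a cadherin and 5.10 CPM (2.05–10.5) in cells with neither. The median depth of the classes with *Cdh1* only, both and *Cdh2* only was 32340, 26295 and 23015 UMIs per cell in d2 EB and 30522, 37746 and 27159 in EpiSC. It was 27181 in EpiSC with neither, and the part of depth in the class levels was not tested.

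Over the 8 E14Tg2a libraries the log2(CPM + 1) of *Cdh1* had a Pearson r of 0.80 with *Epcam*, -0.84 with *Vim*, -0.84 with *Fn1* and -0.59 with *Cdh2*. *Cdh2* had r of 0.86 with *Snai1* and 0.82 with *Zeb2*. Among 6718 genes of at least 20 CPM in a library, those most like *Cdh1* were *Tomm20*, *Xpot*, *Nme4*, *Jmjd1c* and *Mtcl1* (r from 0.97 to 0.99), and those most like *Cdh2* were *Wbp1l*, *BC004004*, *Cr1l*, *Slc35a4* and *Chmp4b* (r from 0.97 to 0.99). With 8 points that share stages and libraries these are descriptions, and no other member was among the 5 nearest to either cadherin.

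The R1 d4 EB show the members with and without the catalytic activity of MLL3 and MLL4. *Cdh1* was 23.2 CPM (21.1–25.3) in WT and 57.8 CPM (54.7–61.0) in dCD, 2.49-fold higher (2.25–2.78), and *Epcam* was 92.2 and 242 CPM, 2.62-fold higher (2.49–2.76). These were the 2 of 9 members that were higher, against 6.31% of all genes. *Cdh2* went from 147 CPM (141–152) to 30.1 CPM (27.9–32.5), *Snai1* from 47.4 to 10.9 CPM, *Zeb2* from 84.7 to 24.5 CPM and *Vim* from 953 to 361 CPM. These 4 were lower by 4.86-, 4.35-, 3.46- and 2.64-fold, against 3.68% of all genes. *Fn1* (492 and 399.8 CPM), *Snai2* (40.2 and 28.5 CPM) and *Esrp1* (8.11 and 10.4 CPM) stayed within 2-fold.

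Shares of cells moved the same way. A *Cdh1* UMI was found in 17.7% of WT and 39.0% of dCD cells, an *Epcam* UMI in 33.8% and 72.2%, and a *Cdh2* UMI in 67.7% and 21.5%. Both cadherins were found in 110 of 1416 WT cells, 7.77% (6.43–9.29), and in 86 of 1699 dCD cells, 5.06% (4.07–6.21). At 6831 UMIs per cell these shares were 2.78% and 2.22%. *Cdh2* was found in 44.0% of WT cells with *Cdh1* and 72.7% of those without, and in 13.0% and 27.0% of the corresponding dCD cells. The dCD library therefore held smaller shares of *Cdh2*-positive cells in both classes, while cells with neither cadherin made up 44.6% of dCD and 22.5% of WT.

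Cell types moved with genotype too. The 7 extraembryonic mesoderm markers summed to 1365 CPM in WT and 361 CPM in dCD, the 6 naive markers to 281 and 530 CPM, and the 7 extraembryonic ectoderm markers to 118 (1 of 7 at 0) and 237 CPM. Of 6 blood markers, 4 were at 0 in dCD and 0 in WT. The lists followed the members: 17 of 36 mesenchymal genes were lower in dCD and 2 higher (median log2 ratio -0.91, all genes 0.03), and 11 of 33 epithelial genes were higher and 3 lower (median 0.71). Smooth muscle actin *Acta2* stood at 264 CPM in WT and 10.3 CPM in dCD, *Col1a1* at 351 and 27.9 CPM and *Twist2* at 42.2 and 2.40 CPM. Of the epithelial genes the desmosome gene *Pkp3* (1.75 and 10.0 CPM) and *Cldn3* (3.84 and 12.8 CPM) were higher in dCD, and *Krt19* (127 and 39.7 CPM) was lower.

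Clusters of the R1 cells, found without the 9 members, were mostly of 1 genotype, so for those clusters genotype, library and cell type cannot be told apart. A WT-only cluster of 368 cells led by *Tbx4* and *Pitx1*, transcription factors of allantois and hindlimb, held *Cdh2* at 271 CPM and *Snai1* at 103 CPM with *Cdh1* at 0.208 CPM (a UMI in 0.272% of cells). A naive pluripotency-like cluster of 455 dCD and 3 WT cells held *Cdh1* at 76.8 CPM, *Cdh2* at 2.57 CPM (a UMI in 3.08% of cells) and *Snai1* at 1.14 CPM in its dCD cells. These clusters had medians of 12596 and 13970 UMIs per cell. Whether the rare *Cdh1* UMIs of the former and *Cdh2* UMIs of the latter are background or low expression was not tested. In the endoderm or gut-like cluster, 15 of 26 WT cells (57.7%) held both cadherins, the largest share of any cluster with more than 20 WT cells. With 26 cells that share is imprecise. Their median depth was 18732.5 UMIs, against 13187.5 in WT as a whole, and the part of depth in the share was not tested.

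Only 2 clusters held at least 50 cells of each genotype. In the unnamed cluster 1, led by *Ctla2a*, *Cdh5* and *Col3a1* (558 WT and 120 dCD cells), *Vim* was 1434 CPM in WT and 1453 CPM in dCD, a ratio of 1.01 (0.968–1.06), and *Snai1* 41.9 and 45.0 CPM, a ratio of 1.07 (0.814–1.40). *Zeb2* had a ratio of 1.15 (0.974–1.35) and *Cdh1* of 1.35 (0.650–2.61). *Cdh2* was lower at 0.652 (0.553–0.764) and *Fn1* higher at 1.82 (1.72–1.93), and neither these nor any other member passed 2-fold there. The library-wide differences of 2.64- to 4.86-fold in *Vim*, *Zeb2*, *Snai1* and *Cdh2* were thus not seen at that size within this cluster.

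The extraembryonic ectoderm-like cluster 6 (154 WT and 145 dCD cells) kept part of them. *Vim* was 1299 CPM in WT and 446 CPM in dCD, a ratio of 0.344 (0.323–0.365), *Zeb2* 97.0 and 27.3 CPM, 0.282 (0.218–0.360), and *Snai1* 45.9 and 21.0 CPM, 0.457 (0.335–0.618). *Epcam* was 160 and 438 CPM, 2.73-fold higher (2.47–3.03), and *Esrp1* 2.43-fold higher (1.505–4.02). *Cdh1* differed less than over the whole library, at 1.28-fold (1.07–1.53), and *Cdh2* stood at 0.613 (0.499–0.752). Both cadherins were found in 35.1% of its WT and 27.6% of its dCD cells. *Fn1* stood at 0.835 (0.781–0.893), opposite in direction to cluster 1. With the naive pluripotency-like, extraembryonic ectoderm-like and 2-cell embryo-like clusters left out altogether, *Cdh1*, *Epcam*, *Cdh2*, *Snai1* and *Zeb2* kept their calls and *Vim* lost its own at a log2 ratio of -0.89.

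**Figure D5:**
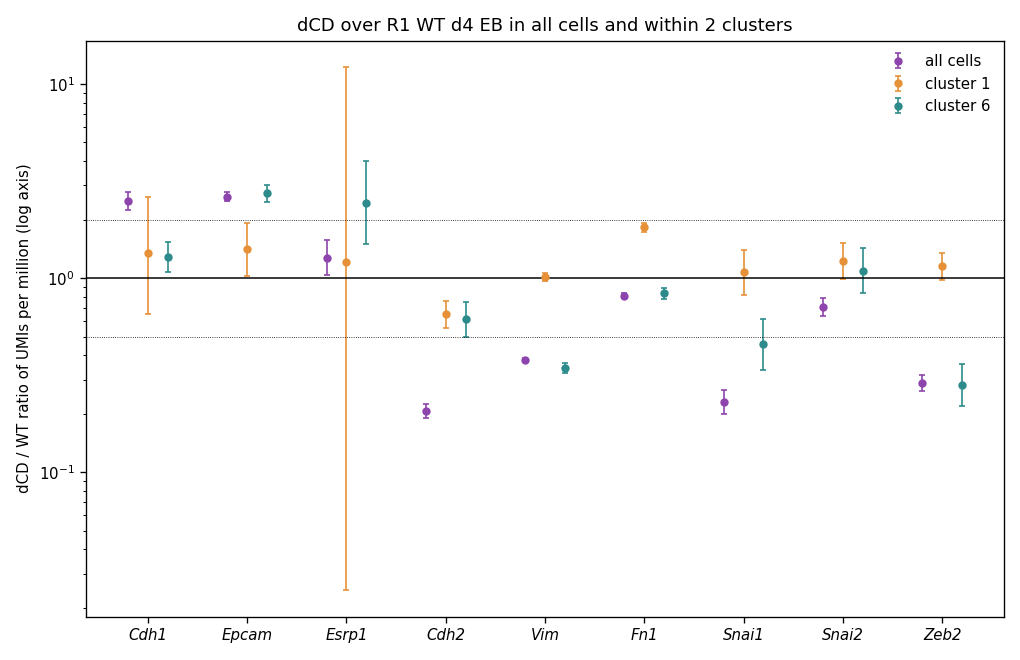
Ratio of CPM in dCD over WT for each of the 9 genes over the whole d4 EB library and within the 2 clusters that held at least 50 cells of each genotype, on a log axis with exact conditional 95% intervals and dotted lines at 0.5 and 2. *Vim* is at 0.378 over the whole library, 1.01 within cluster 1 and 0.344 within the extraembryonic ectoderm-like cluster 6.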

How the data were processed

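Single cells were profiled in 8 libraries of E14Tg2a and 2 libraries of R1 mouse cells. The E14Tg2a UMI counts were made by the authors with Cell Ranger on mm10 (GRCm38), brought to a common number of mapped reads per cell, and deposited as counts per gene and cell. The R1 UMI counts were deposited by the authors after removal of cells with fewer than 2000 expressed genes (the lowest in the file is 2006), with a counting tool not given in the sources used here. Common mapped depth evens out libraries, not cells, so shares of cells still follow depth. E14Tg2a cells were assigned to libraries by barcode suffix, a broken header line was rejoined, and 0 columns were left unused. Symbols came from GENCODE for GRCm38 for 27645 identifiers. The 9 genes and the lists were chosen with earlier results of these data known.

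UMIs were summed per group and scaled to CPM, with a pseudocount of 1 CPM, a minimum of 10 UMIs over both groups and a 2-fold threshold. Total UMIs per library ranged from 8757170 to 22887974. With 1 library per condition, precision is that of counting and no test was made. Cells were thinned to 15374 (E14Tg2a) or 6831 UMIs (R1), leaving out shallower cells. Clusters used 2000 variable genes without the 9 members, by k-means on 20 components (3 clusters in d2 EB, 4 in d4 EB) or, for R1, Seurat 5.3.0 on 10 components at resolution 0.3. A cluster was named only where at least 3 markers of a class, each with at least 10 UMIs and found in at least 10% of its cells, were at least 2-fold higher than in the other cells, and stayed unnamed where another class's markers led or most cells were listed PGCLC. Doublets called with Scrublet in scanpy 1.11.5 stayed in, and an alternative dropped them. Genes named are the members, the 5 genes most like each cadherin, the 3 largest ratios of each list past the threshold in a comparison, and markers that name a cluster; leading genes of unnamed clusters were chosen after their values were seen. Alternatives changed scaling, pseudocount, filter, threshold, depth, doublets, the minimum of genes per cell, clustering and the cells compared. Code was tested on simulated data. Python 3.11.15, numpy 2.4.6, scipy 1.17.1, pandas 2.3.3, scikit-learn 1.9.0, matplotlib 3.10.9, R 4.3.3 and Matrix 1.6.5 were used.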

Additional observations from a re-analysis of the deposited data

Results flagged for a closer look

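The ratio of *Fn1*, the fibronectin gene, in dCD over WT d4 EB was 1.82 (1.72–1.93) within the unnamed cluster 1 and 0.835 (0.781–0.893) within the extraembryonic ectoderm-like cluster 6, so the same contrast ran in opposite directions in the 2 groups of cells. Each genotype is 1 library, and the difference between the clusters was not tested.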

How the results depend on the processing

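No paired analysis was possible because each condition has 1 library, and no replicate could be left out. No value past the threshold changed its direction under any alternative run. Of 72 counts of members past the threshold, 66 stayed within 1.5 times the main count, and 603 of 633 member ratios stayed past the threshold or, where short of it, within their counting interval. Part of the 633 could not move: a 1.5-fold threshold and no minimum of UMIs leave each ratio as it was. A 3-fold threshold could move only members past 2-fold, so the share of 633 overstates how firm the ratios are. Of the cluster levels 24 of 26, and of the shares 17 of 42, stayed within their counting intervals. With a 1.5-fold threshold, 5 members in place of 2 passed from d2 EpiLC to EpiSC, 6 in place of 2 from d2 to d4 EB and 5 in place of 3 between the ESC media, and a 3-fold threshold left 3 of 6 between WT and dCD. From d2 to d4 EB, a mean over cells gave 4 members and leaving out the extraembryonic ectoderm-like clusters, an alternative added after seeing the data, gave 5. *Zeb2* lost its call from 2i ESC to d2 EpiLC with a pseudocount of 5 CPM (log2 ratio 0.33). That pseudocount also moved the share of higher genes among all calls from 80.1% to 66.2% between the ESC media and from 63.1% to 48.7% between dCD and WT. Seurat clusters of d2 EB put *Cdh1* at 14.9 and *Cdh2* at 49.0 CPM in 291 mesoderm-like cells, against 18.3 and 56.3 CPM in 392 cells by k-means, and split off 107 primitive streak or nascent mesoderm-like cells with 31.5 and 78.9 CPM.

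The share of cells with both cadherins fell with depth and with a stricter definition. Thinned, 2i ESC had 0.897%, S+L ESC 2.05%, EpiLC 6.37%, 3.53% and 1.80% on days 1, 2 and 3, EpiSC 13.6%, d2 EB 7.13%, d2 listed PGCLC 3.30% and other d2 EB cells 7.94%, d4 listed PGCLC 2.63% and other d4 EB cells 2.39%, WT 2.78% and dCD 2.22%. With at least 2 UMIs of each cadherin it was 0% in 2i ESC, d3 EpiLC and d2 and d4 listed PGCLC, 7.14% and 0.692% in EpiLC of days 1 and 2, 13.9% in EpiSC, 4.10% and 0.543% in EB of days 2 and 4, 0.647% in S+L ESC, 4.93% and 0.617% in the other d2 and d4 EB cells, 2.33% in WT and 1.24% in dCD. Depth limits the repressors outside the EB, where 3 UMIs are 0.213 to 0.343 CPM.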
